A study of Homo sapiens with 18 samples.

Results

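TSPAN1, TPD52, PHEX, RFX8, SLPI and CA2 are 6 of the 58302 genes measured by mRNA sequencing in a thyroid cancer line whose Dicer1 transcript was lowered with siRNA. They were chosen because their transcripts were several-fold lower after Dicer1 siRNA in one or both cell lines, so their fall under Dicer1 siRNA is described here and was not tested. TPC1 is a line from a human papillary thyroid carcinoma and carries wild-type Dicer1. D11 is 1 clone of TPC1 made Dicer1 (+/-) with CRISPR-Cas9, so what sets it apart from TPC1 may belong to the clone as well as to the lost allele. Cells of each line received no transfection (NT), 5 nM of a negative control siRNA (NC) or 5 nM of a Dicer1 siRNA (siDicer), and RNA was taken on day 4. Each of the 6 groups held 3 libraries, which gives 18 libraries, and NT and NC together served as the 6 controls of a line. For 12 of the 18 samples the title and the description disagree on the group. The groups used here follow the descriptions, which match the column names of the table. The study states in general that its experiments were repeated independently, but the labels do not say that the libraries of a group came from separate cultures, and the p-values below then measure only the spread between these libraries, which may be technical.

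Dicer1 is the enzyme that cuts precursor hairpins into mature microRNAs, which pair with messenger RNAs and lower their stability and translation. The 6 genes were not chosen for a shared pathway. They code for proteins of the cell surface (TSPAN1 and PHEX), of vesicle traffic (TPD52), of transcription (RFX8), of the secreted fluid that protects epithelia (SLPI) and of acid-base balance (CA2).

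Values are normalised read counts, the reads of a gene scaled to 20 M aligned reads (M, the SI prefix mega) and rounded up. The libraries held 11.3 to 23.2 M reads (median 15.9 M), so 1 read was worth 0.861 to 1.77 units and a floor of 3 reads, which covers counting error only, 2.58 to 5.32 units. The lowest value of any of the 6 genes was 9, above that floor. The targeted gene DICER1 read 255, 395 and 246 in TPC1 siDicer replicates 1 to 3 and 297, 451 and 277 in D11 siDicer, against 1397 to 2492 in TPC1 controls and 655 to 1536 in D11 controls, so DICER1 was below all controls of the line in each siDicer library. Of 7 thyroid follicular markers, PAX8 (7361 to 14886), TG (32 to 124) and FOXE1 (61 to 214) were detected in all 18 libraries, while TSHR, SLC5A5, NKX2-1 and DIO1 stayed at 4 or less. Of 6 epithelial markers, KRT7, KRT8 and KRT18 were detected throughout, and EPCAM, CDH1 and KRT19 stayed at 8 or less. All 6 mesenchymal markers were detected, with a summed level of 113890 to 248877 in control and 198901 to 249552 in siDicer libraries. Of 3 immune markers PTPRC and CD3E stayed at 4 or less and CD68 was at 763 to 1960. The summed levels in control and siDicer libraries were 7465 to 15214 and 7875 to 14448 for the thyroid list, 8781 to 20467 and 12283 to 14541 for the epithelial list, and 765 to 1962 and 809 to 1906 for the immune list, and any part of these markers in the results below was not tested.

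TSPAN1 (ENSG00000117472) codes for a tetraspanin, a membrane protein that organises other proteins into clusters at the cell surface. It lies on the plus strand of chromosome 1, from 46175073 to 46185962 (GRCh38, GENCODE release 44). Its promoter window is shown because it lies inside a gene of the other strand, P3R3URF-PIK3R3, whose reads bear on those of TSPAN1. The capitals mark CG dinucleotides. The sequence is from RefSeq (GRCh38.p14, chr1:46174837-46175136, plus strand), where 1 of the 6 genes was matched.
TSPAN1 promoter: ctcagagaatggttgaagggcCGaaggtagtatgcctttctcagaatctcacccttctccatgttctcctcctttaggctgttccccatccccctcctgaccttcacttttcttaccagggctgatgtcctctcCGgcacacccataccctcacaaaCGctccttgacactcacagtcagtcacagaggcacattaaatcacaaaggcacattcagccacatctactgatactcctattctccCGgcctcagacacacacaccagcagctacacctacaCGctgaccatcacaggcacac
The window of 300 bases took 250 before the gene start of its own source and 50 after it. That start differs from the GENCODE start given above. The window held 5 CG dinucleotides against a median of 14 over 35116 promoters of the same length, and 29.6% of them held fewer. Its GC content was 52% against a median of 58.7%. Both strands were searched for 6 short motifs, and none matched. TATAAA, the TATA box, was found in 11.5% of the promoters. CCAAT was found in 34.6% of them and GGGCGG, the GC box, in 45%. The E-box CACGTG was found in 7.26%. The AP-1 motif TGACTCA was found in 4.95% and TGACG, which opens with the same letters, in 24.6%. No match says only that these letters are not in this window.

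TSPAN1 stood at a similar level in the controls of both lines and lost most of it in each siDicer library. The TPC1 libraries (replicates 1, 2 and 3 in this order, here and for each gene that follows) had NT values of 345, 323 and 313, NC values of 217, 373 and 230, and siDicer values of 47, 137 and 52. The D11 libraries had NT values of 335, 335 and 341, NC values of 229, 334 and 254, and siDicer values of 50, 74 and 66. No siDicer library reached the controls of its line, and siDicer replicate 2 was the highest of the 3 in both. The TPC1 siDicer mean of 78.7 ± 50.6 (SD, n = 3) was 4.16-fold below NT and 3.47-fold below NC. The D11 siDicer mean of 63.3 ± 12.2 (SD, n = 3) was 5.32-fold below NT and 4.3-fold below NC. NT libraries were nearly equal in D11, at 337 ± 3.46 (SD, n = 3), while NC libraries spread over 272 ± 54.8 (SD, n = 3). P3R3URF-PIK3R3 overlaps the start of TSPAN1 on the other strand and read 200 to 487. Whether the counting used strand is not stated, so reads of the overlap cannot be assigned with certainty. It was not called in either line (limma log2 changes -0.52 in TPC1 and -0.33 in D11, adjusted p 0.0814 and 0.357).

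TPD52 (ENSG00000076554; minus strand of chromosome 8, 80034745 to 80231232) codes for a coiled-coil protein of vesicle traffic and secretion that is amplified in several carcinomas. It fell in both lines, from a control level that was higher in TPC1 than in D11. The TPC1 libraries had NT values of 1243, 1347 and 1343, NC values of 1174, 1471 and 1153, and siDicer values of 364, 598 and 375. The D11 libraries had NT values of 505, 343 and 296, NC values of 429, 355 and 202, and siDicer values of 166, 78 and 60. No siDicer library overlapped the controls of its line, and every D11 library, transfected or not, lay below every TPC1 control library. The siDicer mean of TPC1, 446 ± 132 (SD, n = 3), was 2.94-fold below NT and 2.84-fold below NC. That of D11, 101 ± 56.7 (SD, n = 3), was 3.76-fold below NT and 3.24-fold below NC. In D11 the order of replicates 1, 2 and 3 was the same in NT and in siDicer, with replicate 1 highest and replicate 3 lowest, and NC had the same order. ENSG00000276418, which overlaps TPD52 on the same strand, read 899 to 1399 and changed by -0.40 in TPC1 (limma adjusted p 0.00597) and -0.20 in D11 (limma adjusted p 0.231), less than the fold minimum for a call. How reads of the shared stretch were counted is not stated.

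PHEX (ENSG00000102174; plus strand of chromosome X, 22032325 to 22494713) codes for a zinc metallopeptidase of the cell surface, known for X-linked hypophosphataemia, in which its loss raises the phosphate-wasting hormone FGF23. Its level per length of transcript was the lowest of the 6 with or without Dicer1 siRNA. The TPC1 libraries had NT values of 113, 173 and 114, NC values of 105, 168 and 92, and siDicer values of 22, 60 and 15. The D11 libraries had NT values of 68, 143 and 90, NC values of 89, 148 and 82, and siDicer values of 21, 27 and 20. Replicate 2 was the highest library in 6 of 6 groups, and no siDicer library reached a control library of its line. The TPC1 siDicer mean, 32.3 ± 24.2 (SD, n = 3), was 4.12-fold below NT and 3.76-fold below NC. The D11 siDicer mean, 22.7 ± 3.79 (SD, n = 3), was 4.43-fold below NT and 4.69-fold below NC. Of the genes that overlap PHEX, PHEX-AS1, PTCHD1-AS, CBLL2 and METTL15P3 read 4 or less in every library.

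RFX8 (ENSG00000196460; minus strand of chromosome 2, 101397359 to 101475112) belongs to the regulatory factor X family of winged-helix DNA-binding proteins and overlaps no annotated gene. It varied widely between replicates. The TPC1 libraries had NT values of 84, 234 and 121, NC values of 41, 244 and 42, and siDicer values of 9, 90 and 16. The D11 libraries had NT values of 63, 244 and 152, NC values of 68, 184 and 67, and siDicer values of 21, 45 and 14. Replicate 2 was again the highest in 6 of 6 groups, and TPC1 siDicer replicate 2 at 90 lay above NT replicate 1 and above NC replicates 1 and 3, so the TPC1 groups overlapped. The D11 groups did not. The mean of the TPC1 siDicer libraries was 38.3 ± 44.9 (SD, n = 3), 3.82-fold below NT and 2.84-fold below NC. That of the D11 siDicer libraries was 26.7 ± 16.3 (SD, n = 3), 5.74-fold below NT and 3.99-fold below NC. Against the controls of its own replicate number, TPC1 siDicer kept 14.4%, 37.7% and 19.6% of RFX8 in replicates 1, 2 and 3, and D11 siDicer 32.1%, 21.0% and 12.8%.

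SLPI (ENSG00000124107; minus strand of chromosome 20, 45252239 to 45254564) codes for the secretory leukocyte protease inhibitor, a secreted protein that blocks neutrophil elastase and related serine proteases at epithelial surfaces. It overlaps no annotated gene. The TPC1 libraries had NT values of 491, 829 and 241, NC values of 407, 1070 and 229, and siDicer values of 92, 186 and 48. The D11 libraries had NT values of 274, 146 and 90, NC values of 86, 113 and 37, and siDicer values of 39, 30 and 11. Replicate 3 was the lowest library in 6 of 6 groups. D11 siDicer replicate 1, at 39, lay just above NC replicate 3, at 37, so siDicer overlapped NC in D11, while it overlapped neither NT in D11 nor any control in TPC1. The fold depended on the control in D11, where the siDicer mean of 26.7 ± 14.3 (SD, n = 3) was 6.37-fold below NT and 2.95-fold below NC. In TPC1 the siDicer mean of 109 ± 70.5 (SD, n = 3) was 4.79-fold below NT and 5.23-fold below NC. Within replicate numbers the TPC1 fall was the most even of the 6, with 20.5%, 19.6% and 20.4% of the same-numbered controls kept.

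CA2 (ENSG00000104267; plus strand of chromosome 8, 85463968 to 85481493) codes for carbonic anhydrase 2, the cytosolic enzyme that turns carbon dioxide and water into bicarbonate and protons. The TPC1 libraries had NT values of 177, 204 and 131, NC values of 123, 265 and 107, and siDicer values of 38, 91 and 19. The D11 libraries had NT values of 80, 74 and 69, NC values of 72, 108 and 62, and siDicer values of 31, 28 and 20. No siDicer library reached a control library of its line, and replicate 3 was the lowest in 6 of 6 groups. The TPC1 siDicer mean, 49.3 ± 37.3 (SD, n = 3), was 3.46-fold below NT and 3.34-fold below NC. The D11 siDicer mean, 26.3 ± 5.69 (SD, n = 3), was 2.82-fold below NT and 3.06-fold below NC, the smallest fall of the 6 in that line against the pooled controls. CA3-AS1, antisense to the start of CA2, read 1 to 10.

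**Figure D1:**
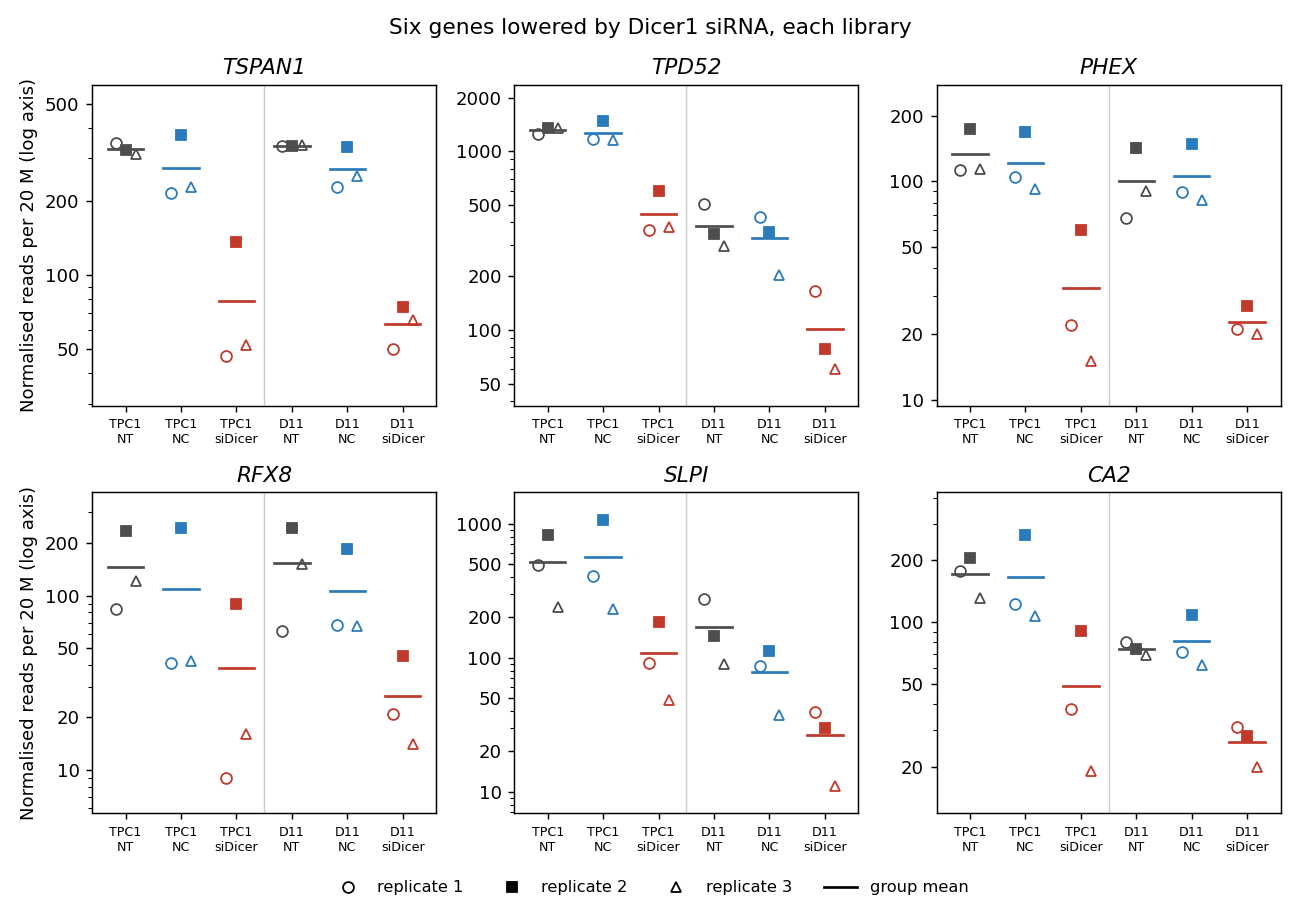
Normalised read count per 20 M reads (log axis) of each of the 6 genes in each library, by group on the horizontal axis, with a symbol for each replicate number and a line at the group mean. The siDicer libraries sit below all controls of their line except RFX8 in TPC1 (replicate 2 at 90) and SLPI in D11 (replicate 1 at 39).

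The siDicer changes against the 6 pooled controls are on the log2(value + 1) scale, where the added 1 shrinks the change of low genes. In TPC1 they ran from -1.56 (SE 0.15) for TPD52 to -2.29 (SE 0.53) for SLPI. TSPAN1, PHEX, RFX8 and CA2 changed by -2.07 (SE 0.31), -2.15 (SE 0.37), -2.02 (SE 0.74) and -1.95 (SE 0.42). In D11 the change ran from -1.52 (SE 0.21) for CA2 to -2.25 (SE 0.17) for TSPAN1. TPD52, PHEX, RFX8 and SLPI changed by -1.88 (SE 0.31), -2.09 (SE 0.25), -2.19 (SE 0.46) and -2.10 (SE 0.51). The fold between linear means is a different measure, since the log2 changes compare means of logs. It ran from 2.89-fold to 5.01-fold in TPC1 and from 2.94-fold to 4.86-fold in D11. The groups did not overlap for 5 of the 6 genes in each line. The share of all genes without overlap was not computed. Calls are a different measure (limma, adjusted p below 0.05 and 1.5-fold or more). By that measure 4.16% of 18475 genes tested in TPC1 and 6.75% of 18413 in D11 were lower in siDicer. The 6 were chosen on this contrast, so nothing is read from the count of genes without overlap. All 6 genes passed the filter on low values in every comparison. In bulk RNA, fewer cells with a transcript and less transcript per cell cannot be told apart.

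The choice of control moved some of these values. Against NT the changes were -1.59 (TPD52) to -2.43 (RFX8) in TPC1 and -1.48 (CA2) to -2.65 (SLPI) in D11. Against NC they were -1.53 (TPD52) to -2.29 (SLPI) in TPC1 and -1.55 (SLPI) to -2.14 (PHEX) in D11. SLPI in D11 went from -2.65 (SE 0.48) against NT to -1.55 (SE 0.50) against NC, and RFX8 in TPC1 from -2.43 (SE 0.77) to -1.61 (SE 0.94). TSPAN1 was nearer to 0 against NC in both lines, at -1.92 (SE 0.41) against -2.22 (SE 0.37) in TPC1 and -2.09 (SE 0.20) against -2.41 (SE 0.18) in D11. DICER1 itself moved the other way, from -2.35 (SE 0.19) against NT to -2.94 (SE 0.20) against NC in TPC1 and from -1.41 (SE 0.23) to -2.12 (SE 0.17) in D11. For PHEX, TPD52 and CA2 the choice mattered less in both lines.

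**Figure D2:**
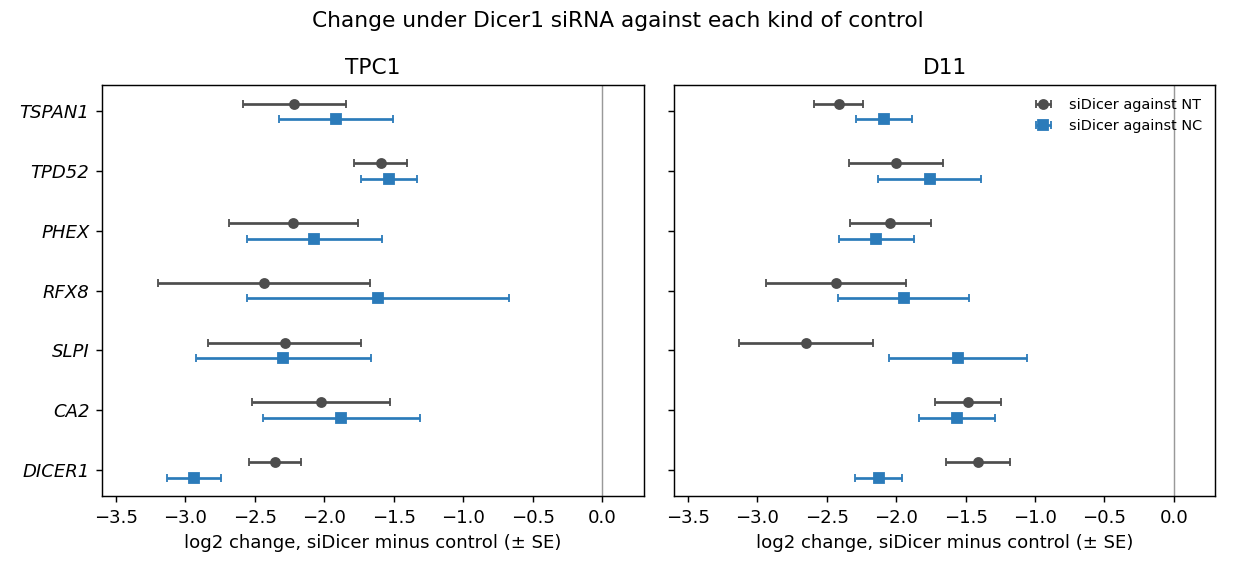
Change in siDicer against NT (circles) and against NC (squares) on the log2(value + 1) scale, with SE bars, for the 6 genes and DICER1 in TPC1 and D11. SLPI in D11 and RFX8 in TPC1 lie further from 0 against NT than against NC, and DICER1 lies further from 0 against NC.

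The transfection itself gave a contrast that did not choose the genes, NC against NT, although the same libraries were the controls in that choice. In TPC1, 0 of the 6 genes were called by limma (0 at an unadjusted p under 0.05, and 0 with voom on recovered reads), beside 0.111% of 18008 genes called in either direction. Of those 18008 genes, 2003 had an unadjusted limma p under 0.05. Their log2 changes, NC minus NT, lay between -0.82 (SE 0.68) for RFX8 and 0.01 (SE 0.59) for SLPI, with limma adjusted p of 0.645 to 0.997. RFX8 was lower in NC in replicates 1 and 3 and level in replicate 2, where NC kept 48.8%, 34.7% and 104% of the NT value. The call count over all genes rested on single libraries in TPC1, from 0 without NC replicate 1, NT replicate 3 or NC replicate 3, and 8 and 10 without NT replicate 1 and NC replicate 2, to 55 without NT replicate 2.

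In D11, 0 of the 6 were called by limma in the same contrast (1 at an unadjusted p under 0.05, SLPI, and 0 called with voom), beside 0.35% of 17992 genes called. Of those 17992 genes, 2447 had an unadjusted limma p under 0.05, so 1 of 6 does not stand out. SLPI was lower in NC than in NT in 3 of 3 replicates, at 31.4%, 77.4% and 41.1% of NT. Its change was -1.10 (SE 0.46, limma adjusted p 0.340), and the NT and NC libraries overlapped. Samples of D11 that carry the same replicate number deviated together from their group means, and with the replicate number as a block the change of SLPI was called (SE 0.24, limma adjusted p 0.0425), as was that of DICER1 at 0.71 (SE 0.16, limma adjusted p 0.0460). DICER1 was also higher in NC in TPC1 with the block, at 0.58 (SE 0.097, limma adjusted p 0.00721). Without the block DICER1 was called in neither line (limma adjusted p 0.133 in TPC1 and 0.153 in D11). With that block 315 genes were called in D11 in place of 63. TSPAN1 in NC was at 68.4% and 74.5% of NT in replicates 1 and 3 and level in replicate 2, at 99.7%, a change of -0.32 (SE 0.16, limma adjusted p 0.406, and 0.264 with the block). PHEX and CA2 differed by 0.10 (SE 0.31) and 0.08 (SE 0.23), TPD52 by -0.24 (SE 0.28) and RFX8 by -0.49 (SE 0.50), and none of the 4 was called. The call count over all genes went from 0 without NC replicate 2 or NT replicate 3, and 3 and 7 without NC replicates 3 and 1, to 101 without NT replicate 1.

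Replicates of siDicer did not lose the 6 transcripts to the same degree. In TPC1, siDicer replicate 2 had the highest value of the 3 for 6 of the 6 genes and the largest share of the same-numbered controls for 5 of the 6, from 35.2% (PHEX) to 42.4% (TPD52). SLPI was the exception, with 19.6% in replicate 2. Replicates 1 and 3 kept 14.4% to 30.1%. DICER1 was also highest in that library, which kept 23.2% of the same-numbered controls against 12.5% and 13.1%. Without TPC1 siDicer replicate 2 the changes were larger, at -2.55 for TSPAN1, -1.79 for TPD52, -2.70 for PHEX, -2.96 for RFX8, -2.78 for SLPI and -2.52 for CA2. They were smallest without replicate 1 for RFX8 (-1.36) and without replicate 3 for CA2 (-1.42). In D11 the order differed. DICER1 was again kept most in replicate 2, at 34.8% against 27.1% and 23.8%, but replicate 1 kept the largest share of 4 of the 6 genes (TPD52, PHEX, RFX8 and CA2), from 26.7% to 40.8%. Across D11 replicates the shares of TSPAN1 lay within 17.7% to 22.2% and those of SLPI within 17.3% to 23.2%. Without D11 siDicer replicate 2 the changes were -2.37 for TSPAN1, -1.76 for TPD52, -2.22 for PHEX, -2.64 for RFX8, -2.27 for SLPI and -1.58 for CA2. Without replicate 1 they were -2.09, -2.30, -2.05, -2.11, -2.45 and -1.65 in the same order of genes. Without replicate 3 they were -2.29, -1.58, -2.01, -1.83, -1.58 and -1.34.

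**Figure D3:**
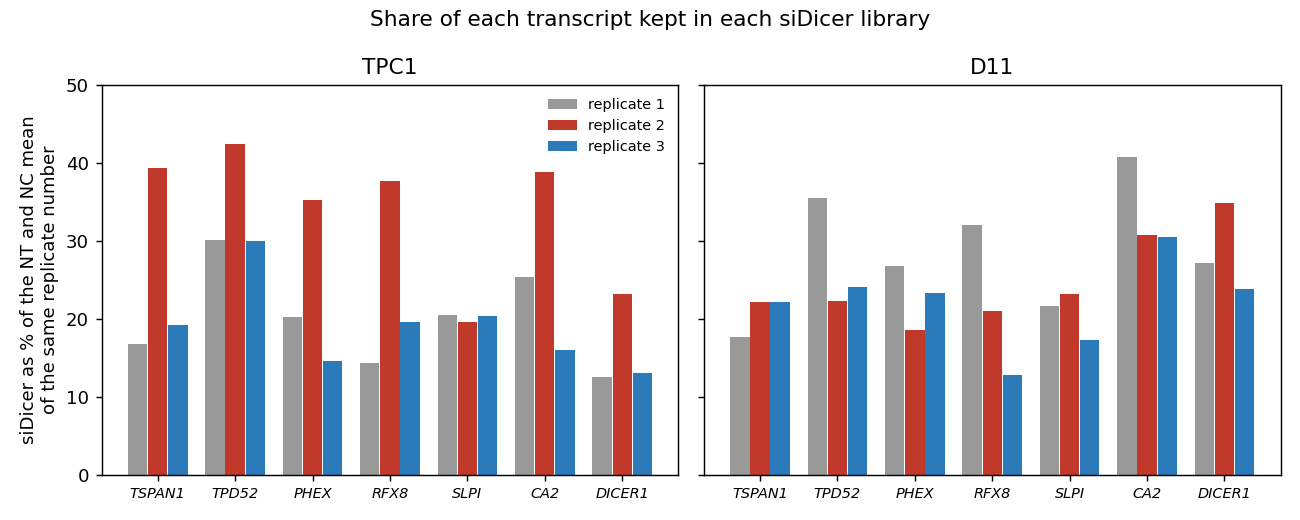
Each siDicer library as a percentage of the mean of the NT and NC libraries that carry the same replicate number, for the 6 genes and DICER1 in TPC1 and D11; bars start at 0. In TPC1 the replicate 2 bar is the highest for all but SLPI, and in D11 the replicate 1 bar is the highest for TPD52, PHEX, RFX8 and CA2.

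The genes also varied together between replicates, over all 18 libraries and, for some pairs of genes, in the controls alone. Deviations of the log2 values from the 6 group means, a description over 18 libraries in which the genes share library and depth, had a Pearson correlation of 0.72 in the median of the 15 pairs of genes, from 0.20 (TSPAN1 and TPD52) to 0.89 (PHEX and RFX8). In the 12 control libraries alone PHEX and RFX8 had 0.94, SLPI and CA2 0.88, and TSPAN1 and CA2 0.88, while TPD52 had 0.09 with RFX8 and 0.12 with PHEX. Replicate 2 was the highest for PHEX and RFX8 in every group, and TPD52 followed SLPI (0.70) more than the others.

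The control levels of the lines differed for 3 of the 6 genes. TPD52 was 3.63-fold higher in TPC1 controls, 1288 ± 121 (SD, n = 6) against 355 ± 105 (SD, n = 6) in D11, with no overlap. SLPI was 4.38-fold higher, 545 ± 338 against 124 ± 81.6 (SD, n = 6 each), and the ranges overlapped. CA2 was 2.17-fold higher, 168 ± 59.8 against 77.5 ± 16.1 (SD, n = 6 each), and the lowest TPC1 value, 107, was just under the highest D11 value, 108. TSPAN1, PHEX and RFX8 differed by no more than the spread between libraries, at 300 ± 63.0, 128 ± 34.3 and 128 ± 91.3 in TPC1 against 305 ± 49.6, 103 ± 33.6 and 130 ± 75.8 in D11 (SD, n = 6 each). The difference between the lines in the siDicer change, D11 minus TPC1, was -0.18 (SE 0.37) for TSPAN1, -0.32 (SE 0.38) for TPD52, 0.05 (SE 0.47) for PHEX, -0.17 (SE 0.95) for RFX8, 0.19 (SE 0.80) for SLPI and 0.43 (SE 0.49) for CA2, in each case smaller than its own SE. The fit held no term for the replicate number, so each SE also holds the spread shared by same-numbered libraries. No SE with that term was computed for these differences. Since the controls and the siDicer libraries of both lines chose the genes, these differences carry no test.

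Per kilobase of exon (union of exons, GENCODE release 44), the genes could be set in order. In TPC1 controls the level of SLPI was 914 ± 567 per kb, above TPD52 at 159 ± 14.9, TSPAN1 at 127 ± 26.6, CA2 at 83.6 ± 29.8, RFX8 at 42.1 ± 30.1 and PHEX at 12.3 ± 3.29 (SD, n = 6 each). SLPI did not overlap TPD52, and every later neighbour in that order overlapped the next. TPC1 siDicer libraries had the same order, from 182 ± 118 for SLPI to 3.11 ± 2.33 per kb for PHEX (SD, n = 3 each). In D11 controls TPD52 stood below TSPAN1, at 43.8 ± 12.9 against 129 ± 20.9 per kb without overlap, and next to RFX8 at 42.7 ± 24.9 and CA2 at 38.6 ± 8.01 (SD, n = 6 each), which it overlapped. PHEX was the lowest of the 6 in every one of these groups.

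The profiles most like each gene over the 18 libraries, among 12507 or 12508 genes with a mean of at least 100, followed the groups and the replicates at once and are given as a description. For TSPAN1 they were KNSTRN (Pearson r 0.98), CDKN3 (0.98) and RPE (0.98). For PHEX they were SPRED1 (0.98), NAPG (0.97) and IMPAD1 (0.97), and for RFX8 PHLDA1 (0.97), ADIRF-AS1 (0.96) and RAD21 (0.95). TPD52 and SLPI were in each other's list, at 0.93, beside LITAF (0.90) and APOBEC3G (0.89) for TPD52 and RDH14 (0.94) and AL135999.1 (0.92) for SLPI. For CA2 they were CLDND1 (0.95), PLS1 (0.94) and MAP3K5 (0.94).

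Relatives of the 6 genes, from lists of their families and pathways, were tested in the siDicer comparison because the choice of the 6 did not use them. Of 117 relatives, 64 were tested in TPC1, and 6 were called higher and 3 lower, or 9.38% and 4.69%, where 3.22% of all genes were called higher and 4.16% lower. In D11 63 were tested, and 10 were called higher and 6 lower, or 15.9% and 9.52%, where 5.26% of all genes were called higher and 6.75% lower. Their median log2 change was 0.00 in TPC1 and -0.03 in D11, beside -0.04 in each line over all genes tested. The TPC1 count fell to 3 without siDicer replicate 1 and to 3 without siDicer replicate 3.

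Of 32 other tetraspanins 22 were tested, with 2 called higher and 1 lower in TPC1 and 3 called higher and 3 lower in D11 (median log2 change 0.09 and -0.03). TSPAN13 was called lower in both lines, like no other tetraspanin on the list, from 200 ± 46.1 (SD, n = 6) to 89.0 ± 30.5 (SD, n = 3) in TPC1, -1.19 (SE 0.24, limma adjusted p 0.00965), and from 148 ± 17.5 to 55.7 ± 9.07 in D11, -1.40 (SE 0.16, limma adjusted p 0.000192). CD82, known as a suppressor of metastasis, rose from 2558 ± 598 to 4924 ± 794 in TPC1 and from 2000 ± 465 to 4269 ± 815 in D11, by 0.97 (SE 0.19) and 1.11 (SE 0.17) with limma adjusted p 0.00955 and 0.00119. TSPAN9 rose from 1627 ± 282 to 3017 ± 282 in TPC1 and from 1388 ± 168 to 2482 ± 180 in D11, by 0.90 (SE 0.14) and 0.84 (SE 0.11) with limma adjusted p 0.00293 and 0.000476. Members of the family thus moved in both directions. In TPC1 the calls of TSPAN13 and CD82 were lost without siDicer replicate 1 (-0.93 and 0.85) or 3 (-1.21 and 0.97), and that of TSPAN13 also against NC alone (-1.15).

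Of 3 other members of the TPD52 family 2 were tested (median log2 change -0.23 in TPC1 and -0.43 in D11), with 0 called in TPC1 and 1 called lower in D11. TPD52L1 fell in D11, from 203 ± 39.9 (SD, n = 6) to 111 ± 13.1 (SD, n = 3), by -0.85 (SE 0.17, limma adjusted p 0.00439). In TPC1 its change was -0.51 (SE 0.21, limma adjusted p 0.119), which was not called. TPD52L2, the most abundant, read 3643 ± 350 against 3776 ± 213 in TPC1 and 3693 ± 528 against 3654 ± 20.1 in D11, changes of 0.06 (SE 0.09) and 0.00 (SE 0.12).

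Of 6 other M13 metallopeptidases 4 were tested (median log2 change 0.15 in TPC1 and -0.10 in D11), with 0 called in TPC1 and 1 called higher in D11. MME, the cell-surface peptidase neprilysin, rose in D11 from 730 ± 196 (SD, n = 6) to 1390 ± 70.5 (SD, n = 3), by 0.97 (SE 0.18, limma adjusted p 0.00318), opposite to PHEX. In TPC1 its change was 0.91 (SE 0.30, limma adjusted p 0.0656), which was not called, but was with TMM scaling (0.98), against NC alone (1.20), with the replicate block, in a fit of all 18 libraries (0.91 each) and without NT replicate 2 (1.09). ECE2, an endothelin-converting enzyme, changed by 0.04 (SE 0.17) in TPC1 and -0.25 (SE 0.14) in D11 and was not called. Of 22 genes of phosphate handling and mineralisation, the setting in which PHEX is known, 12 were tested, with 2 called higher in TPC1, 4 called higher in D11 and 0 called lower in either line (median log2 change 0.09 and 0.16). VDR, the vitamin D receptor, rose from 674 ± 153 to 1485 ± 395 in TPC1 and from 733 ± 154 to 1622 ± 189 in D11, by 1.13 (SE 0.22) and 1.17 (SE 0.17) with limma adjusted p 0.00902 and 0.000787. FGFR1, a receptor through which FGF23 signals, rose from 2711 ± 338 to 4176 ± 846 in TPC1 and from 2544 ± 341 to 4127 ± 362 in D11, by 0.61 (SE 0.14) and 0.71 (SE 0.12) with limma adjusted p 0.0183 and 0.00174. In TPC1 both calls were lost without siDicer replicate 1 (1.03 and 0.52) or 3 (1.00 and 0.52), and that of FGFR1 without NT replicate 1 (0.56) or 3 (0.57) and against NC alone (0.50). In D11 FGFR1 was below the fold minimum against NC alone (0.55).

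Of 9 other RFX factors and partners 7 were tested, with 1 called lower in TPC1 and 1 in D11 (median log2 change -0.17 and -0.25). RFX5, which acts at the promoters of MHC class II genes, changed by -0.59 (SE 0.14, limma adjusted p 0.0219) in TPC1 and by -0.56 (SE 0.10, limma adjusted p 0.00239) in D11, just inside and just outside the fold minimum. RFX2, which drives genes of cilia, fell by 0.62 on the log2 scale in D11 (SE 0.20, limma adjusted p 0.0376), and in TPC1 its change was -0.44 (SE 0.18, limma adjusted p 0.126). The calls of both were fragile. That of RFX5 in TPC1 was lost with TMM (-0.51) or RLE scaling (-0.54), a pseudocount of 10 (-0.58), NT alone (-0.69) or NC alone (-0.49), and without siDicer replicate 1 (-0.50) or 3 (-0.54), NT replicate 2 (-0.50) or NC replicate 2 (-0.58), and RFX5 was called in D11 without NT replicate 1 (-0.59) or NC replicate 1 (-0.59). That of RFX2 in D11 was lost with TMM (-0.59) or RLE scaling (-0.58), a pseudocount of 10 (-0.58), no filter on low values (-0.62), NC alone (-0.39), and without siDicer replicate 1 (-0.50), 2 (-0.62) or 3 (-0.76) or NT replicate 2 (-0.53) or 3 (-0.56).

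Of 17 other inhibitors with the WAP domain of SLPI, 2 were tested in TPC1 and 1 in D11, and 0 were called (median log2 change -0.29 and -0.50). ANOS1 stood at 11.2 ± 7.17 against 5.67 ± 2.08 in TPC1 and 10.5 ± 4.59 against 8.33 ± 6.51 in D11 (controls, SD, n = 6, against siDicer, SD, n = 3), with limma adjusted p 0.344 and 0.526.

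Of 14 other carbonic anhydrases 6 were tested (median log2 change -0.32 in TPC1 and -0.13 in D11), with 1 called higher in TPC1 and 1 higher and 1 lower in D11. CA13, a cytosolic isozyme like CA2, rose while CA2 was low, from 468 ± 88.8 (SD, n = 6) to 799 ± 85.0 (SD, n = 3) in TPC1 and from 390 ± 39.4 to 677 ± 28.6 in D11. The changes were 0.79 (SE 0.14, limma adjusted p 0.00727) and 0.80 (SE 0.11, limma adjusted p 0.000594), and the TPC1 call was lost against NT alone (0.68). Of 14 bicarbonate and proton transporters 9 were tested, with 1 called higher and 1 lower in TPC1 and 1 called higher in D11 (median log2 change 0.13 and 0.04). SLC4A4, a sodium bicarbonate cotransporter, rose from 2139 ± 388 to 3903 ± 273 in TPC1 and from 1920 ± 305 to 3697 ± 352 in D11, by 0.88 (SE 0.14) and 0.96 (SE 0.13) with limma adjusted p 0.00392 and 0.000583.

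The other 7 calls among the relatives, named after their values were seen, each came in 1 line when tested against the pooled controls without a block. In D11 they were TSPAN12 (0.93), GALNT3 (0.60) and XPR1 (0.72), called higher with limma adjusted p of 0.0283, 0.0133 and 0.00469, and CD9 (-0.86), ROM1 (-0.72) and CA14 (-1.19), called lower with limma adjusted p of 0.0162, 0.0367 and 0.0191. In TPC1 it was SLC4A7, called lower (-0.92, limma adjusted p 0.0354). With the replicate number as a block SLC4A7 was also called in D11 (-0.72, SE 0.12, limma adjusted p 0.00191), as it was there against NC alone (-0.83) and without NT replicate 1 (-0.88) or siDicer replicate 2 (-0.98). XPR1 was also called in TPC1 with TMM (0.66) or RLE scaling (0.63), in a fit of all 18 libraries (0.59), against NC alone (0.90) and without NT replicate 2 (0.69). CD9 (-1.14) and CA14 (-1.54) were called there without siDicer replicate 2. In the line of its call, none of the 7 was called under every choice of control. TSPAN12 (0.83), CD9 (-0.54), ROM1 (-0.64), GALNT3 (0.56) and SLC4A7 (-0.95) lost the call against NC alone, and XPR1 (0.51), CA14 (-1.09) and SLC4A7 (-0.89) against NT alone. Single libraries decided 6 of them. The call was lost for CA14 without siDicer replicate 3 (-0.91), for GALNT3 without siDicer replicate 1 (0.44) or NT replicate 1 (0.53), and for CD9 without siDicer replicate 1 (-0.65) or 3 (-0.92). For TSPAN12 it was lost without siDicer replicate 1 (0.76) or 2 (0.87) or without replicate 3 of NT or NC (0.85 each), and for SLC4A7 without siDicer replicate 1 (-0.71) or 3 (-0.77), NC replicate 2 (-0.83) or 3 (-0.96) or NT replicate 3 (-0.96). For ROM1 it was lost without siDicer replicate 2 (-0.61) or 3 (-0.69), NT replicate 2 (-0.69) or 3 (-0.68) or NC replicate 2 (-0.64). ROM1 also lost the call with voom on recovered reads (-0.70) and without the filter on low values (-0.72). TSPAN12 lost it without that filter too (0.93).

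**Figure D4:**
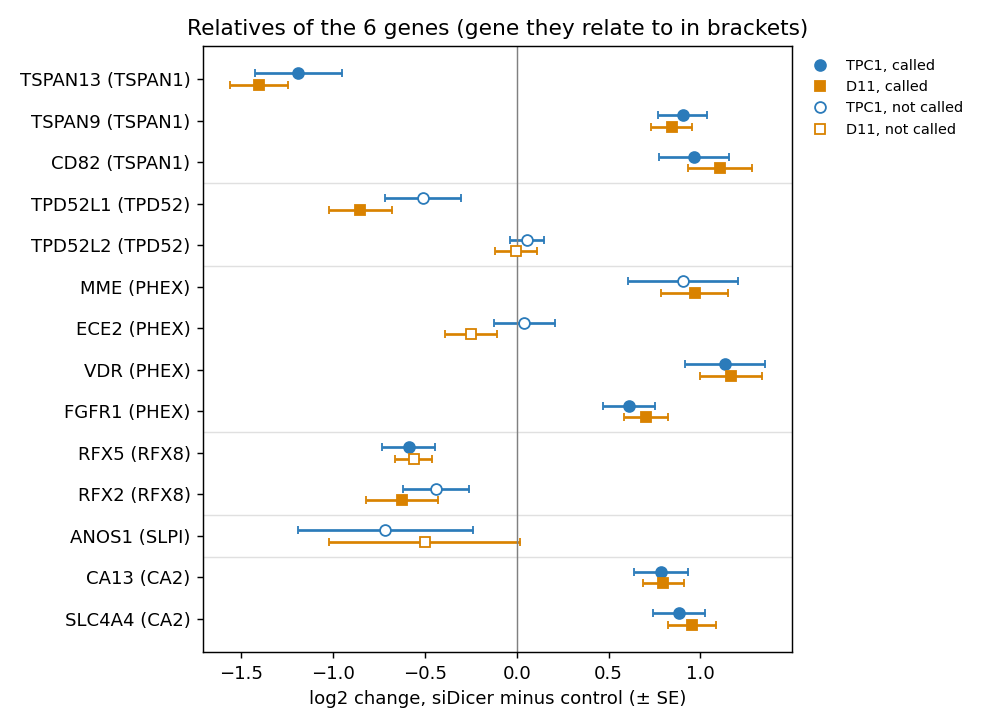
Change in siDicer against the pooled controls on the log2(value + 1) scale, with SE bars, for the relatives named by rule, in TPC1 (circles) and D11 (squares); filled symbols were called. TSPAN13 lies to the left in both lines, and CD82, TSPAN9, VDR, FGFR1, CA13 and SLC4A4 lie to the right in both.

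The nearest protein-coding gene on each side of each of the 6 was looked up after their values were seen, 12 neighbours in all. In each line 8 were tested, 1 was called lower and 0 higher. That neighbour was POMGNT1 in both lines, a glycosyltransferase gene that ends 2721 bases from TSPAN1 on the other strand. It went from 1850 ± 131 (SD, n = 6) to 1205 ± 317 (SD, n = 3) in TPC1, -0.65 (SE 0.13, limma adjusted p 0.0113), and from 1854 ± 101 to 1110 ± 20.1 in D11, -0.74 (SE 0.08, limma adjusted p 0.000189), a smaller fall than that of TSPAN1. In TPC1 this call was lost with TMM scaling (-0.57), against NC alone (-0.58) and without siDicer replicate 1 (-0.54) or 3 (-0.54). MRPS28 next to TPD52 changed by -0.07 and -0.13 in TPC1 and D11, SMS next to PHEX by 0.02 and -0.03, and both genes next to SLPI stood at 7 or less.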

How the data were processed

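mRNA was sequenced in 18 libraries of TPC1 and D11 cells from stranded poly-A libraries. Per the methods and the submitters' processing notes, the authors mapped paired-end reads to GRCh38 with STAR 2.5.3a, obtained gene counts with HTSeq 0.9.1 and the Ensembl release 90 annotation, and normalised to 20 M aligned reads. The deposited values are therefore a normalised score, rounded up to whole numbers, and not read counts. The steps of the values gave the reads behind them. In the 16 libraries where 1 read is worth over 1, so that some whole numbers cannot occur, a whole number of reads, scaled and rounded up, gave back exactly 99.9% to 100% of the low values. These reads served for depth and for voom only. The edgeR test that the study names was not used, since the table holds no raw counts. log2(value + 1) was tested with limma 3.58.1 (R 4.3.3, mean-variance trend), in the libraries of the groups compared, over genes that reached 10 in 3 or more of them. A call needed a Benjamini-Hochberg adjusted p below 0.05 over all genes tested and a difference of 1.5-fold or more. The fits were tested on simulated data with a single dispersion for all genes and no effect shared by replicate number. RFX8 and SLPI spread more between libraries than that, so the simulation does not cover such genes.

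The 6 genes and the 8 lists of relatives, written from textbook families, were chosen with earlier results of these data known. Named relatives were those called in both lines (at most 4 per list by adjusted p in D11) or else the 2 with the smallest adjusted p in D11; for each of the 6 the 3 most similar profiles were named. Replicate numbers were taken to pair samples where every same-numbered pair deviated together (r over 0.1), which held for 9 of 9 pairs in D11 (0.11 to 0.50) and 8 of 9 in TPC1 (0.0994 to 0.542). Gene positions are from GENCODE release 44. Some marker genes are not reported here. Alternatives were TMM and RLE scaling, other filters and pseudocounts (0.1 and 10), no fold minimum, the replicate block, all 18 libraries in one fit, voom, groups from the titles, NT or NC alone, and leaving out each library.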

Additional observations from a re-analysis of the deposited data

How the results depend on the processing

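Of 246 siDicer values of the 6 genes under the alternatives, 237 moved by less than the spread between replicates (the residual SD of the fit). The other 9 came with groups taken from the titles, which place siDicer libraries among the controls of the descriptions: -0.34 for TSPAN1, -0.15 for TPD52, -0.68 for PHEX and -0.96 for CA2 in TPC1, and 0.0062 for TSPAN1 (reversed), -0.78 for TPD52, -0.28 for PHEX, -0.51 for RFX8 and -0.40 for CA2 in D11. With those groups 0 genes and 0 relatives were called in the siDicer comparison of either line. RFX8 and SLPI in TPC1 and SLPI in D11 stayed within that residual SD even with those groups. By their construction the filters, the replicate block and the fit of all 18 libraries cannot change a value. The 237 are therefore no measure of how firm the values are. The counts of genes called in siDicer, 1363 in TPC1 and 2212 in D11, became 2552 and 4086 without a fold minimum, and ranged from 427 to 2094 and from 1374 to 2464 when 1 library was left out; the lowest in TPC1 came without siDicer replicate 3 (427) or 1 (446), the highest without siDicer replicate 2, and the lowest in D11 without siDicer replicate 3. Called relatives ranged from 3 to 12 in TPC1 and from 12 to 17 in D11.

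In NC against NT, the genes called were 20 in TPC1 and 63 in D11. They became 13 and 8 without the filter, 146 and 202 in a fit of all 18 libraries, 36 and 6 with groups from the titles, and 0 to 55 and 0 to 101 when 1 library was left out. With the replicate block they became 565 and 315. In TPC1 8 of 9 same-numbered pairs of libraries had r over 0.1, and the remaining pair, at 0.0994, was just under it. Pairs with different numbers ran from -0.53 to 0.20, so the numbers may pair the TPC1 libraries too. With the block 0 of the 6 genes were called there (RFX8 had a limma adjusted p of 0.0916). In D11 the block called SLPI (-1.10) and no other of the 6 genes. In the siDicer comparison the block changed 2 calls of the named relatives, MME in TPC1 (0.91) and SLC4A7 in D11 (-0.72), both then called.

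The sign of NC against NT turned with groups from the titles for TSPAN1 (0.74), TPD52 (0.39), PHEX (0.90), RFX8 (2.40) and CA2 (0.85) in TPC1 and for TSPAN1 (0.37) and RFX8 (1.47) in D11. With voom it turned for SLPI in TPC1 (-0.062). When 1 library was left out it turned in TPC1 for TPD52 (-0.17 to 0.0044), PHEX (-0.41 to 0.050), CA2 (-0.55 to 0.10) and SLPI (-0.59 to 0.52), and in D11 for TPD52 (-0.47 to 0.071), PHEX (-0.16 to 0.39) and CA2 (-0.15 to 0.25), none of which had been called.

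Among named relatives the sign turned with groups from the titles for TSPAN9 (-0.014), CD82 (-0.19), TPD52L2 (-0.046), MME (-0.26), GALNT3 (-0.091) and CA13 (-0.082) in TPC1, and for CD82 (-0.047), TSPAN12 (-0.67), CD9 (0.18), TPD52L1 (0.049), TPD52L2 (0.027), GALNT3 (-0.012), XPR1 (-0.0054), RFX5 (0.0056), RFX2 (0.12) and CA13 (-0.065) in D11. TPD52L2, near 0 throughout, turned with NT alone in TPC1 (-0.059) and with TMM (0.034), RLE (0.038) or NC alone (0.18) in D11, and ECE2 with NC alone in TPC1 (-0.16). When 1 library was left out, TPD52L2 ranged from -0.052 to 0.043 and ANOS1 from -1.04 to 0.16 in D11, and ECE2 from -0.062 to 0.10 in TPC1. Depth limits the genes near the floor of 3 reads, such as ANOS1, and 3 libraries a group limit the rest. Except where the construction of an alternative shows it, the cause of a change was not tested.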
